A study of Equus caballus with 4 samples.

Results

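Calsarcins and their neighbours in the Z-disc were followed in differentiating equine satellite cells, the stem cells of skeletal muscle. The genes were MYOZ1, MYOZ2, MYOZ3, MYOT, TCAP, LDB3, ACTN2, ACTN3, CSRP3 and DES. Probes were taken where the array's gene name was exactly 1 of these 10 symbols, which gave 15 probes for 8 of the 10 genes, of 43603 gene probes with 24998 gene names on the array. The ACTN2 and LDB3 probes (1 each) carry a transcript identifier as their gene name. They were found through the probe description, and they are given beside the 15 and not counted with them. The set was chosen by measured values, the treated over control ratios of these same arrays in an earlier analysis, so that the values below describe the genes and none is support for the choice.

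The Z-disc is the border of the sarcomere, where alpha-actinin crosslinks the actin filaments of neighbouring sarcomeres. The calsarcins, also called myozenins, are small muscle proteins that bind alpha-actinin, filamin C, telethonin and calcineurin, the calcium-dependent phosphatase that acts on NFAT factors. Around them sit adaptors such as myotilin, telethonin and the PDZ-LIM protein of LDB3, and desmin filaments link neighbouring Z-discs to each other. Many of these genes are switched on as myoblasts fuse and build their first myofibrils.

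Satellite cells from the semitendinosus muscle were in their 3rd day of differentiation in both groups. Treated cells received gamma-oryzanol (GO, ferulate esters of rice bran sterols) at 0.125 µM for 24 h, with hydrogen peroxide (H2O2) at 3 mM in the last 1 h. Control cells received no GO, and the study's methods give the same DMSO vehicle in their medium. The labels do not say whether they received H2O2, and the study's text has them exposed, so that the contrast is taken here as treated against control only. The 4 replicates are labelled as biological. The study's methods describe muscle cuts from several young stallions and then the choice of the best primary line for the cultures. Its abstract names a young horse as the source. By that account the replicates are cultures of a single line, and the spread between arrays does not cover that between horses. The array labels name the control as replicate 1 on each of the 4 arrays, while the design text gives 4 control replicates. If a single control sample was on all 4 arrays, the 4 ratios share it and are not independent. The spread of control levels would then leave out that between control cultures, and the tests below would be too confident. Which account holds was not tested.

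Each of the 4 two-colour arrays, all on 1 slide, held treated RNA in red (Cy5) and control RNA in green (Cy3). No array had swapped dyes, so that the dye and the treatment cannot be told apart at any probe. Of the gene spots, 54.9% to 61.4% were well above background on an array in a channel, and none was saturated. Among the markers of other cell types, 0 of 4 for adipocytes and 0 of 5 for endothelium stood well above background on every array of a channel, while 6 of 8 for fibroblasts, 2 of 5 for leukocytes and 2 of 3 for smooth muscle did so. Muscle markers were well above background for 12 of 13 in the control channel and 13 of 13 in the treated one. In RNA from whole cultures, fewer cells of a type and less RNA per cell cannot be told apart.

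All 15 probes were well above background on all 4 arrays in both channels and were tested. The log2 ratio is treated over control after normexp and loess, so that positive values are higher in treated cells. By limma with Benjamini-Hochberg adjustment over 24230 probes, 9 of the 15 were past the threshold of 0.05, against 17.1% of all tested probes. All 9 were higher in treated cells, while over all tested probes 9.49% were called higher and 7.59% lower. These 9 are not independent measurements: they stand for the 4 genes MYOZ1, MYOZ3, TCAP and CSRP3, and 7 of them are overlapping probes of MYOZ1 or CSRP3. Of the 9, 4 also reached a fold change of 1.3 (both MYOZ1 probes, MYOZ3 and TCAP), against 1.13% of all probes higher with that fold and 1.42% in either direction. Since the choice of genes used this contrast, nothing is read from these shares.

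Taking the brightest probe of each of the 8 genes, their median log2 ratios were 0.26, 0.14, 0.25 and 0.22 in the order of replicates 1 to 4. The median of all tested probes lay between −0.01 and 0.01 on the same arrays. The number of genes with a ratio above 0 was 7, 5, 8 and 5 of 8 on these arrays. Replicate 2 thus had the lowest median, and replicate 3 was the array on which all 8 were above 0. Of the 15 probes, 10 had a ratio above 0 on all 4 arrays, against 22.6% of all tested probes. At 8 of the 15 the treated levels of the 4 arrays all lay above the control levels, against 7.44% of all tested probes. Both counts take overlapping CSRP3 probes separately. Because the genes were chosen by this contrast, nothing is read from these shares either.

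**Figure D1:**
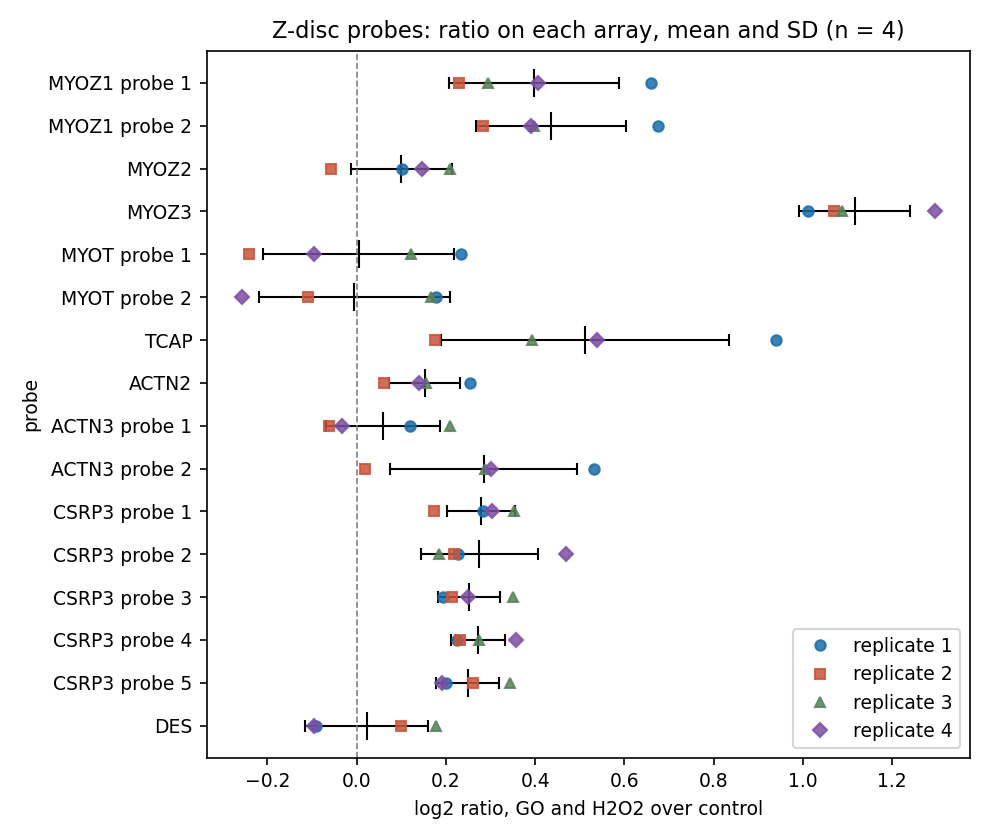
Log2 ratio of treated over control signal (horizontal axis) at each of 16 tested Z-disc probes (vertical axis, the ACTN2 probe included); symbols are the 4 arrays, the bar is the mean and the whiskers the SD (n = 4). MYOZ3 stands at 1.01 to 1.296, the TCAP points spread from 0.18 to 0.94, and those of MYOT and DES lie on both sides of 0.

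MYOZ3, the calsarcin known from fast-twitch fibres, had the highest ratio of the genes described here. Its probe lies at chr14:26647966-26648025 (minus strand, EquCab1), 1 contiguous stretch of 60 bases that starts at base 226 of the transcript. It is shown because the largest ratio rests on it alone:
MYOZ3: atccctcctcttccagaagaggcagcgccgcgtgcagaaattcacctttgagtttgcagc
The scanned control signal of this probe was 204, 192, 179 and 171 intensity units on replicates 1 to 4. The scanned treated signal was 472, 407, 404 and 393 on the same arrays. Every treated value was above every control value, and the local background of the control spots was 44.5 to 61.5. The median control signal of all gene spots was 134, 135, 124 and 140 on these arrays. The MYOZ3 control spots were thus above that median on each array, although at 171 to 204 units they were still dim.

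After normalisation the MYOZ3 log2 ratio was 1.01, 1.07, 1.09 and 1.296, with a mean of 1.12 ± 0.12 (SD, n = 4), a fold of 2.17. It was the 10th highest mean of the 24230 probes tested, and its place among all probes on the single arrays was 44, 25, 88 and 4. The normalised log2 level was 7.44 to 7.70 in control and 8.57 to 8.79 in treated cells, so that the groups did not overlap. The control levels varied between arrays with an SD of 0.10. With Agilent's processed signals the mean ratio was 1.60. The MYOZ3 call was lost without replicate 4, with trend and robust estimation and with the methods' t-test, while the ratio ran from 1.06 to 1.60 over the settings tried.

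MYOZ1, the calsarcin of fast-twitch skeletal fibres, has a pair of probes at chr1:60718542-60718601 and chr1:60718522-60718581 (minus strand, EquCab1). They share 40 of their 60 bases, so that they measure nearly the same stretch of the transcript. At the first, the scanned control signal was 684, 607, 427 and 453 on replicates 1 to 4. The treated signal was 1235, 847, 626 and 626 there. The treated spot was the brighter on every array, but the 2 lowest treated values were under the highest control value.

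The MYOZ1 log2 ratios at this probe were 0.66, 0.23, 0.29 and 0.41, with a mean of 0.40 ± 0.19 (SD, n = 4). At the overlapping probe they were 0.68, 0.28, 0.40 and 0.39, with a mean of 0.44 ± 0.17. Replicate 1 gave the highest ratio and replicate 2 the lowest at both probes. The probes differed from each other by −0.02 to 0.10 on the same array, less than the arrays differed from each other. Levels of the groups overlapped at the first probe (control up to 9.35, treated from 9.34) and not at the second.

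MYOZ2, the calsarcin of heart and slow-twitch fibres, was measured by a bright probe at chr2:93783581-93783640 (minus strand, EquCab1). The scanned control signal was 23485, 20870, 14867 and 21100 on replicates 1 to 4. The treated signal was 33891, 28834, 22203 and 29733. The treated spot was 1.38 to 1.49 times as bright as the control spot on each array before normalisation.

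The loess curve removed most of this difference. The MYOZ2 log2 ratio was then 0.10, −0.06, 0.21 and 0.15, with a mean of 0.10 ± 0.11 (SD, n = 4), not past the threshold. With each array only centred on its median, the mean was 0.22, which was not past the threshold either. The size of the MYOZ2 ratio thus depended on the normalisation. Among the 3 calsarcins, the mean log2 ratios were 1.12, 0.40 and 0.10 in the order MYOZ3, MYOZ1 and MYOZ2. On every array MYOZ3 was the highest of the 3 and MYOZ2 the lowest.

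**Figure D2:**
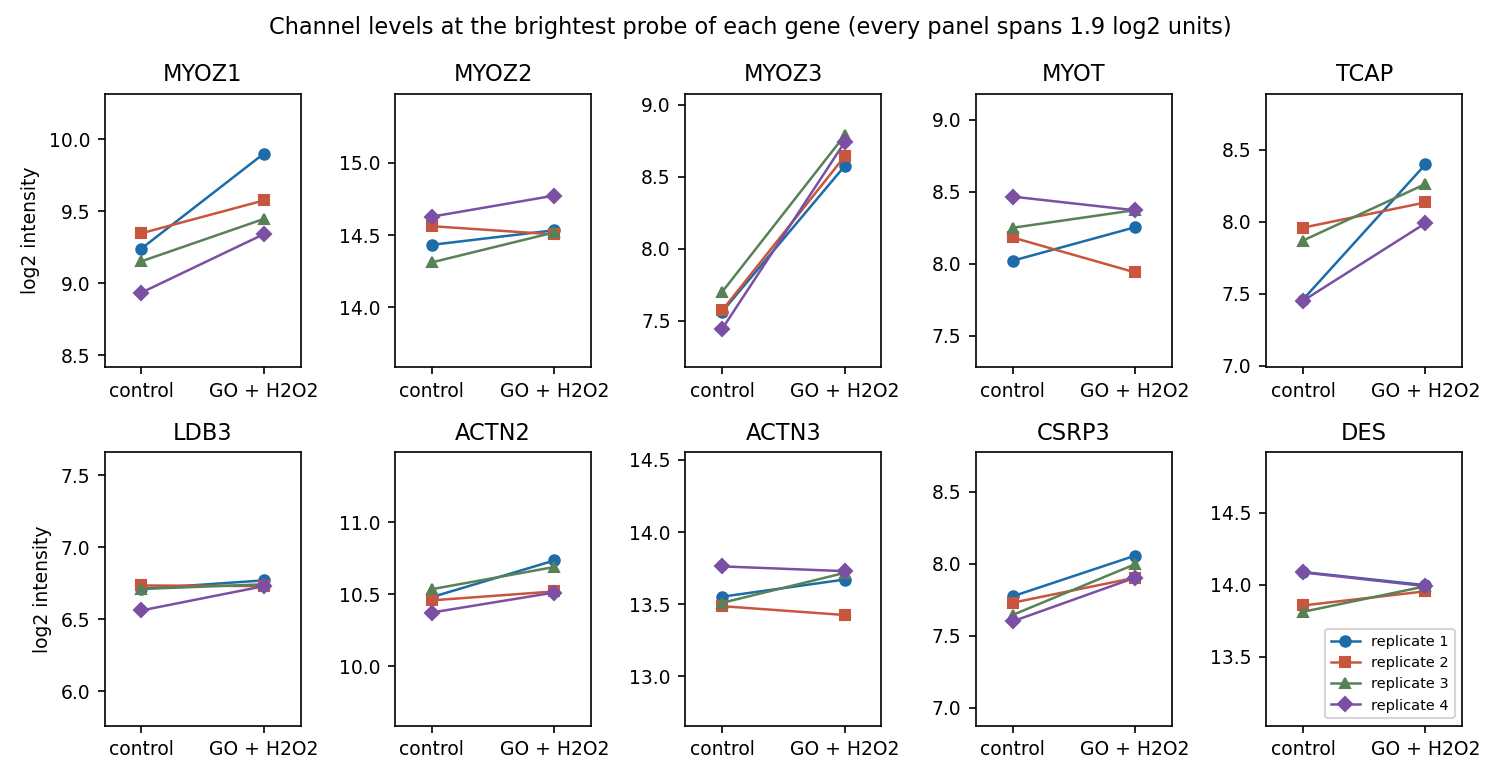
Normalised log2 intensity (vertical axes) of the control and treated channels at the brightest probe of each of the 10 genes; each line joins the channels of 1 array. The MYOZ3 lines run from 7.44 to 7.70 in control up to 8.57 to 8.79 in treated cells, while for MYOT, ACTN3 and DES only 2 of the 4 lines rise.

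TCAP encodes telethonin, the cap that joins the ends of titin at the Z-disc and binds the calsarcins. Its probe spans chr11:21486844-21487163 (minus strand, EquCab1), 320 genomic bases for 60 bases of transcript, so that by these coordinates it crosses a splice junction:
TCAP: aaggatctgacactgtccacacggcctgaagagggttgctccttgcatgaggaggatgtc
The scanned control signal was 192, 244, 199 and 170 on replicates 1 to 4. The scanned treated signal was 406, 283, 269 and 226. The treated spot was the brighter on all 4 arrays, and replicate 1 had by far the widest gap.

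The TCAP log2 ratio was 0.94, 0.18, 0.39 and 0.54, with a mean of 0.51 ± 0.32 (SD, n = 4) and the widest spread of all the probes described here. Normalised levels did not overlap, with 7.45 to 7.96 in control and 7.99 to 8.40 in treated cells. The highest control level and the lowest treated level were close to each other. The call was lost without replicate 1, 3 or 4, with Agilent's processed signals (mean 0.77), with median centring, with the methods' t-test and with no replicate block. Without replicate 1 the mean was 0.37.

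CSRP3 encodes muscle LIM protein, which binds telethonin and alpha-actinin and also enters the nucleus. It has 5 probes, each shifted along the transcript by 1 base from the next, between chr7:74901613 and chr7:74903162 (minus strand, EquCab1). Each spans 1546 genomic bases and so crosses an intron. The outermost probes are shown, with the 56 bases that all 5 share in capitals:
CSRP3 first probe: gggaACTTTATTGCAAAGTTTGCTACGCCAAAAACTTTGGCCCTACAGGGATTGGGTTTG
CSRP3 last probe: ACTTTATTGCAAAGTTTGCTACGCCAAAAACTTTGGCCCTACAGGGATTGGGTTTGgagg
The 5 values on an array are therefore repeated readings of the same RNA, and they count as 1 gene.

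The mean CSRP3 log2 ratio of the 5 probes was 0.23, 0.22, 0.30 and 0.31 on replicates 1 to 4. The SD among the 5 probes was 0.04, 0.03, 0.07 and 0.11 on these arrays. All 20 readings were above 0, from 0.17 to 0.47. The mean of the 4 array means was 0.26 ± 0.05 (SD, n = 4 arrays), a spread about as wide as that among overlapping probes of the same array (median SD 0.05). The probe means ran from 0.25 to 0.28.

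CSRP3 spots were dim. At the brightest of the probes the scanned control signal was 232, 203, 171 and 188, and the treated signal was 303, 237, 219 and 209. The treated signal was the higher on each array, while the control of replicate 1 was above the treated signal of replicates 3 and 4 as scanned. At 2 of the other probes the treated spot of replicate 4 was slightly dimmer than the control spot, with scanned ratios of 0.976 and 0.987. Normalised levels did not overlap at 4 of the 5 probes. With Agilent's processed signals the probe means were 0.43 to 0.55.

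MYOT encodes myotilin, an immunoglobulin-domain protein that binds alpha-actinin and filamin C. Its probes lie next to each other at chr14:37776992-37777051 and chr14:37776932-37776991 (minus strand, EquCab1) and share no stretch of sequence. The first is shown because the arrays disagreed on it:
MYOT: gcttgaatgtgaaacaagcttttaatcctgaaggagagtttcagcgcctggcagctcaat
Here the log2 ratio was 0.23, −0.24, 0.12 and −0.10 on replicates 1 to 4, with a mean of 0.00 ± 0.21 (SD, n = 4). At the adjoining probe it was 0.18, −0.11, 0.17 and −0.26, with a mean of −0.01 ± 0.21. Replicates 1 and 3 were above 0 and replicates 2 and 4 below 0 at both probes. The mean near 0 thus stood for arrays that went opposite ways, and the same signs came from probes without shared bases.

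The scanned MYOT control signal at the first probe was 275, 274, 242 and 328. The treated signal was 356, 250, 291 and 307. The groups overlapped at both probes, as scanned and as normalised.

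The alpha-actinins crosslink actin in the Z-disc. ACTN3, the form confined to fast fibres, has a probe at chr12:16922484-16922624 and another at chr12:16920204-16920731 (plus strand, EquCab1), from different parts of the transcript that start at bases 2538 and 1841:
ACTN3 first probe: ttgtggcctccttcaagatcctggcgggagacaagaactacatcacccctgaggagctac
ACTN3 second probe: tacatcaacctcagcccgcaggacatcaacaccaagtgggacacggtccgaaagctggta
Both are shown because they gave different ratios. The log2 ratio was 0.12, −0.06, 0.21 and −0.03 at the first, with a mean of 0.06 ± 0.13 (SD, n = 4). It was 0.53, 0.02, 0.29 and 0.30 at the second, with a mean of 0.28 ± 0.21. The second ratio was the higher on all 4 arrays, by 0.41, 0.08, 0.08 and 0.34. Neither probe was past the threshold in the fit reported here.

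The second ACTN3 probe was past the threshold with array weights, with no background correction, with no filter on dim probes and without replicate 2. At the first probe, scanned signals were 8498 to 13051 in control and 12418 to 18299 in treated cells. At the second they were 1160 to 1602 and 1728 to 2716, and every treated value was above every control value. Normalised levels overlapped at the first probe and not at the second.

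ACTN2, the alpha-actinin of heart and of all skeletal fibres, is named on its probe by the description only. The probe spans chr1:72050345-72051916 (minus strand, EquCab1). Its log2 ratio was 0.25, 0.06, 0.15 and 0.14 on replicates 1 to 4, with a mean of 0.15 ± 0.08 (SD, n = 4). All 4 arrays were above 0 and the mean was not past the threshold, although it was with array weights and with a row and column correction. Scanned signals were 1096 to 1619 in control and 1454 to 2254 in treated cells.

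LDB3, also known as ZASP or Cypher, was near background. Its probe spans chr1:80941880-80942542 (minus strand, EquCab1), again named by the description. It was well above background on 0 arrays in the control channel and on 2 in the treated one, so that it was not tested and only bounds its level. The scanned signals were 96.1 to 104.9 in control and 78.1 to 92.2 in treated cells, against local backgrounds of 41 to 50. Before normalisation the median log2 ratio of all gene spots was itself −0.11 to −0.29 on the arrays. After it the LDB3 log2 ratio ran from −0.004 to 0.17, with a mean of 0.06 ± 0.07 (SD, n = 4). With Agilent's processed signals the mean was 0.40. No direction is read from a probe this dim.

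DES encodes desmin, the muscle intermediate filament, and its probe spans chr6:8935739-8936002 (plus strand, EquCab1). The scanned control signal was 18765, 13098, 10605 and 14808 on replicates 1 to 4. The treated signal was 23207, 19642, 15289 and 17154. The treated spot was the brighter on all 4 arrays before normalisation, as at the bright probes of MYOZ2 and ACTN3.

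After normalisation the DES log2 ratio was −0.09, 0.10, 0.18 and −0.09, with a mean of 0.02 ± 0.14 (SD, n = 4). The arrays fell on both sides of 0, and the levels overlapped. With median centring the mean was 0.11, and with a GC correction it was −0.02.

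**Figure D3:**
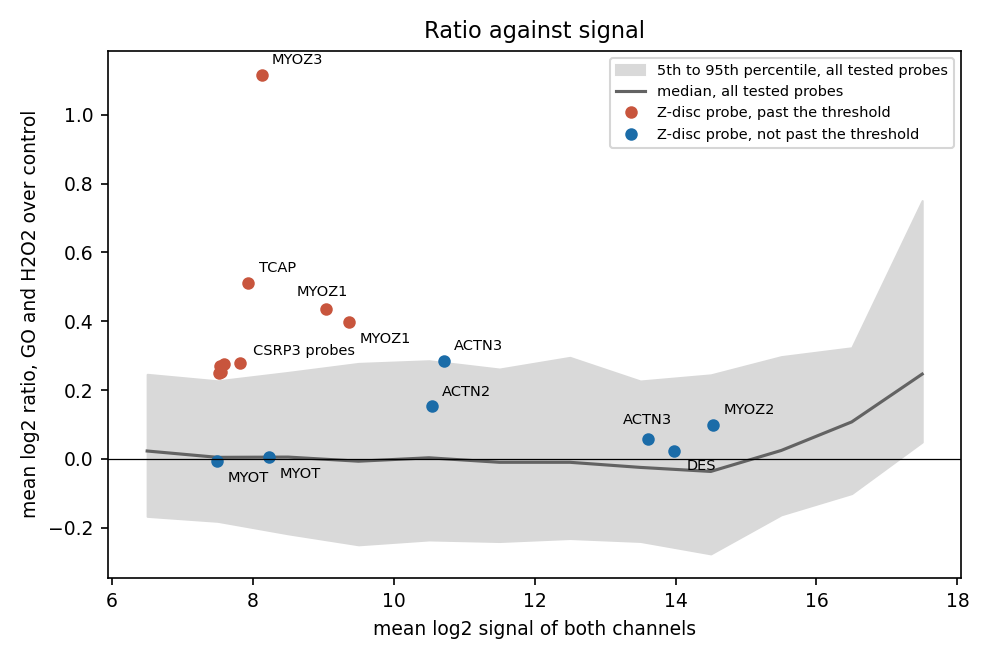
Mean log2 ratio of treated over control (vertical axis) against the mean log2 signal of both channels (horizontal axis) for the 16 tested Z-disc probes; the grey band holds the 5th to 95th percentile and the line the median of all tested probes per unit of signal. The probes past the threshold have a log2 signal of 7.53 to 9.37 and lie above the band, and those of MYOZ2, DES and the first ACTN3 probe, at 13.61 to 14.53, lie inside it.

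The 9 probes past the threshold had a mean log2 signal of 7.53 to 9.37. Among the 500 tested probes closest to each in signal, MYOZ3 and TCAP lay above all 500. The MYOZ1 probes lay above 98.0% and 98.6% of such neighbours, and the CSRP3 probes above 95.8% to 97.6%. MYOZ2 lay above 84.0% of its neighbours, the first ACTN3 probe above 74.8% and DES above 67.8%. After normalisation the median log2 ratio was 0.14 over the 405 probes brighter than 16 on the log2 scale, but none of the probes described here is that bright.

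**Figure D4:**
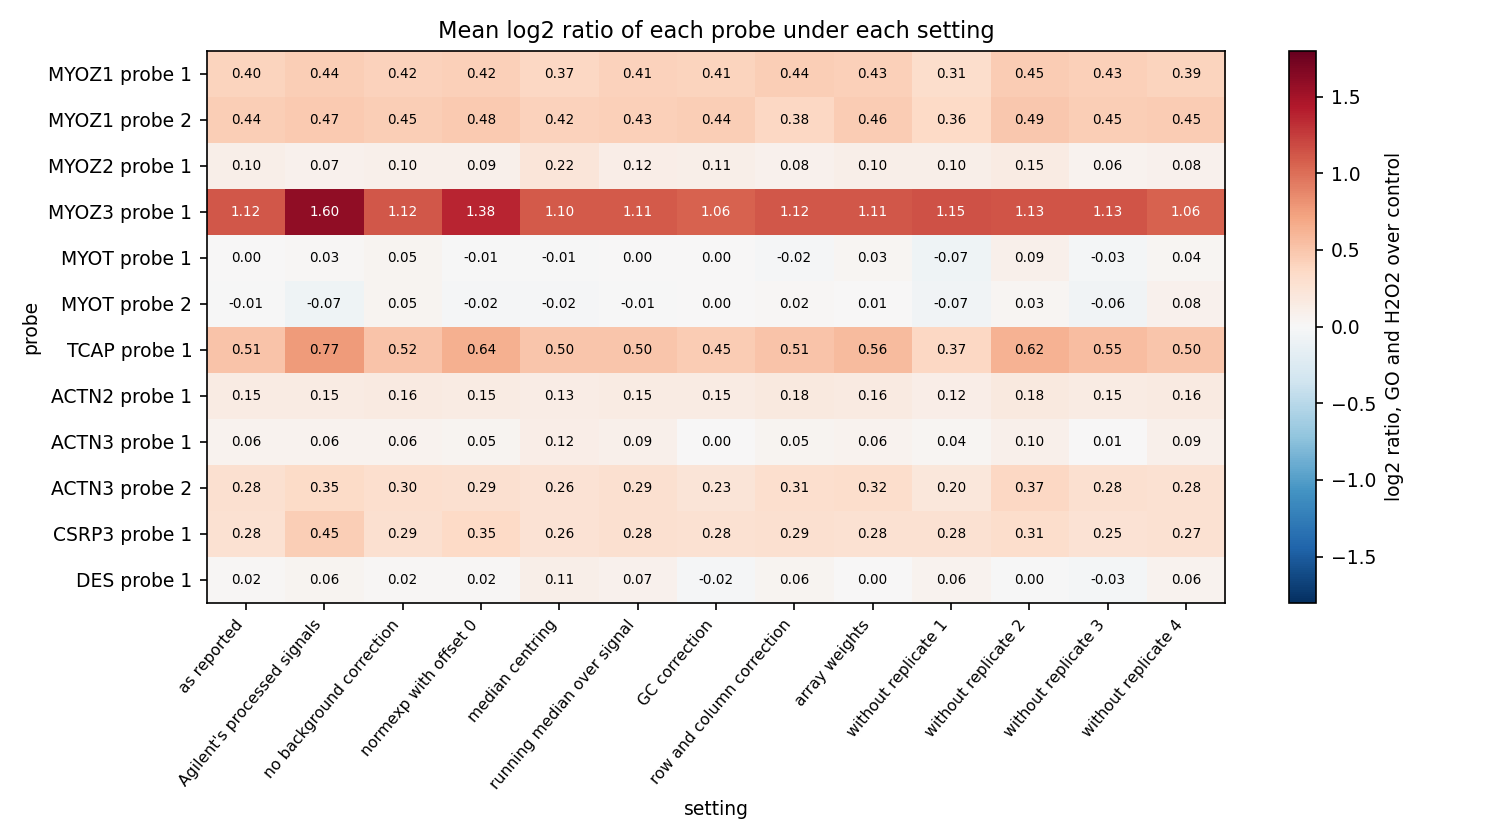
Mean log2 ratio (colour and printed value) of 12 Z-disc probes (vertical axis, 1 of the 5 CSRP3 probes) under the settings that change a ratio (horizontal axis). MYOZ3 runs from 1.06 to 1.60, and MYOT and DES change sign around 0.

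The count of 9 depended on the arrays used and on the test. It was 10 without replicate 2, 1 without replicate 1 or 3 (MYOZ3 both times) and 0 without replicate 4, where limma gave 10 of the 15 an unadjusted p under 0.05. With the treated and control channels fitted as separate samples (no replicate block) it was 5, namely MYOZ3, the second MYOZ1 probe and 3 of CSRP3. The ratios of MYOZ1, MYOZ3, TCAP and CSRP3 kept their sign in every setting tried.

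Other Z-disc genes that bind or neighbour these proteins were counted from a list of 36, of which 29 were on the array and 26 were tested. This list and the M-band, calcineurin and non-muscle lists below were chosen with earlier results of these arrays known. Their shares therefore describe the lists and lend no weight to the values above. Of the 26, 10 were higher and 2 lower past the threshold, and 14 were not past it, against 9.93% higher and 7.16% lower over all 13692 gene names. The median log2 ratio of the list was 0.12, against 0.01 for all gene names. The largest were FLNC (filamin C, the actin crosslinker that binds calsarcins) at 0.41 ± 0.08, NRAP (a scaffold of nascent myofibrils) at 0.39 ± 0.09 and CRYAB (a small heat shock protein that binds desmin) at 0.39 ± 0.15. The 2 lower genes were PALLD, the broadly expressed relative of myotilin, at −0.23 ± 0.06 and SYNC, which binds desmin, at −0.18 ± 0.05. The list's median was 0.20, 0.05, 0.12 and 0.12 on replicates 1 to 4, lowest on replicate 2, as for the 8 genes above.

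The M-band, at the other end of the half-sarcomere's filaments, and factors of myofibril assembly made a list of 10 genes, of which 5 were tested. All 5 had a ratio above 0, against 52.5% of all gene names, and 3 were higher past the threshold, against 9.93%. These were MYBPH, a myosin-binding protein, at 0.56 ± 0.07 (SD, n = 4), MYOM2 at 0.49 ± 0.13 and MYOM1 at 0.27 ± 0.14, both of which crosslink myosin in the M-band.

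Genes of calcineurin, its regulators, NFAT and MEF2 were taken because calsarcins bind calcineurin. Of 14 tested, 2 were higher and 0 lower past the threshold, near the 9.93% higher and 7.16% lower of all gene names (median log2 ratio 0.07). They were the muscle transcription factors MEF2A at 0.26 ± 0.10 (SD, n = 4) and MEF2C at 0.20 ± 0.05. At their brightest probes the calcineurin subunits and the NFAT genes were not past the threshold, although 2 of the 4 probes of the regulatory subunit PPP3R1 were. With the mean of each gene's probes the count was 3.

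A list of non-muscle genes, most of them relatives of the Z-disc genes, gave 3 higher and 1 lower of 11 tested, with a median of 0.08. Over all gene names 9.93% were higher and 7.16% lower. Those higher were the PDZ-LIM genes PDLIM2 at 0.41 ± 0.19 (SD, n = 4) and PDLIM4 at 0.29 ± 0.08 and the LIM cofactor LDB1 at 0.18 ± 0.06. LDB1 and LDB2, also on the list, share a symbol stem with LDB3 but are not PDZ-LIM genes, and they are not its relatives. VIM, the intermediate filament of non-muscle cells and myoblasts, was lower at −0.21 ± 0.10 at its brightest probe, while only 1 of its 3 probes was past the threshold. With the mean of each gene's probes the list had 3 higher and 0 lower. All counts of these lists fell to 1 or 0 without replicate 1, 3 or 4.

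**Figure D5:**
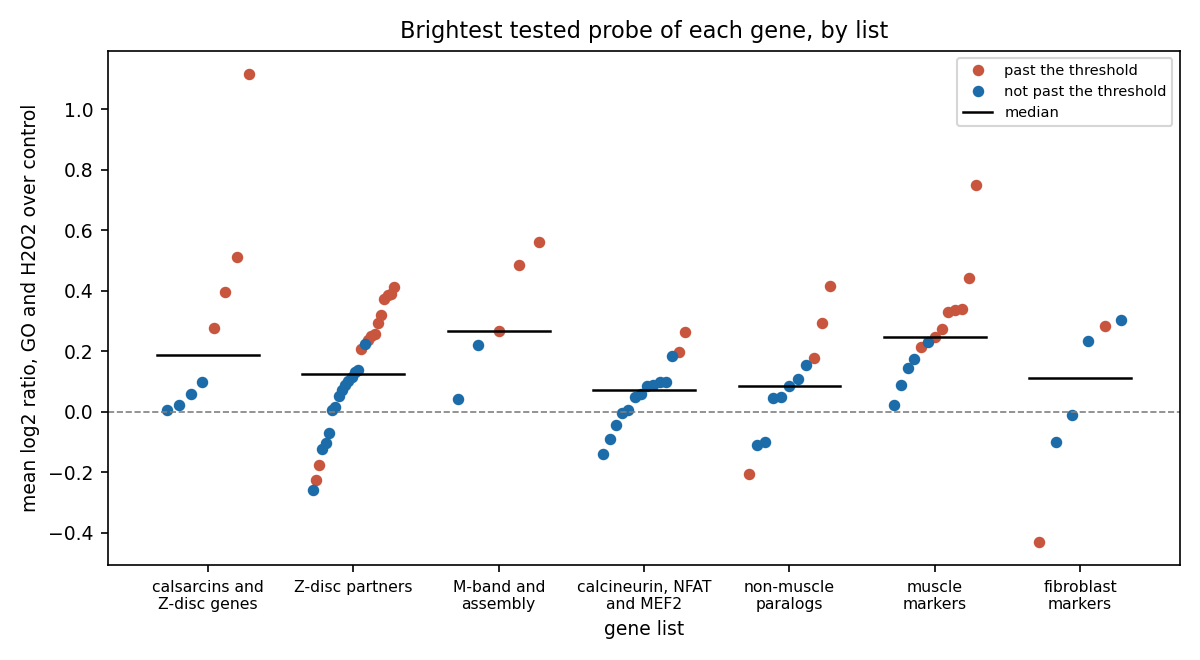
Mean log2 ratio of treated over control (vertical axis) at the brightest tested probe of each gene, by list (horizontal axis), with the list's median as a line; 8 Z-disc genes, 26 partners, 5 M-band and assembly genes, 14 of calcineurin, NFAT and MEF2, 11 of the non-muscle list (drawn as paralogs, LDB1 and LDB2 included), 13 muscle and 6 fibroblast markers are plotted. All 13 muscle markers lie above 0.

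Of the general muscle markers, 13 were tested and 8 of them were higher past the threshold, against 9.93% of all gene names. This count was not followed under the other settings. Over the whole array 2, 38 and 0 probes were past the threshold without replicate 1, 3 or 4, and 5 with the methods' t-test. All 13 markers had a ratio above 0, against 52.5% of all gene names, and their median log2 ratio was 0.25. Their summed normalised signal was 142558 to 152479 in control and 165244 to 196795 in treated cells, higher in treated on 4 of 4 arrays. Of the fibroblast markers 6 of 8 were tested, with THY1 higher and LUM lower, and their summed signal of 307292 to 380442 in control and 371362 to 435480 in treated cells was higher in treated on 3 of 4 arrays. Of the 6 markers 3 had a ratio above 0. The brightest of them, COL1A2 and COL3A1, had mean log2 signals of 17.56 and 16.93, where all tested probes had median log2 ratios of 0.25 and 0.11. Of 5 leukocyte markers 2 were tested, with CD14 lower. Their summed signal was 3843 to 4392 in control and 3479 to 3965 in treated cells. The smooth muscle markers (2 of 3 tested) were not past the threshold, with sums of 53238 to 77306 and 62625 to 86849. Summed signals near background were 335.2 to 418.1 against 332.5 to 401.6 for adipocyte markers and 446.4 to 462.5 against 432.9 to 454.3 for endothelial ones. The part of cell makeup in the ratios above was not tested.

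Genes with profiles most like those above were sought by Euclidean distance over the 4 log2 ratios, among 8133 genes with a symbol. Nearest to MYOZ3 were FAM219A at a distance of 0.15, GJB7 at 0.52, CBLN4 at 0.68, RN18S at 0.80 and ASS1 at 1.08. GJB7 was well above background on 0 arrays and CBLN4 on 3 arrays in the control channel, so that their ratios are less certain. Only FAM219A, with 0.89, 1.11, 1.12 and 1.22, was close to MYOZ3 on each array. Nearest to the median profile of the 8 genes were RNPS1, TM7SF2, TMEM120A, TLX1 and YDJC, at distances of 0.04 to 0.05. None of these 5 is a Z-disc gene, and so close a fit to a median is a description over 4 points only.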

How the data were processed

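The authors' deposited files hold spot intensities of 4 two-colour arrays, which Agilent Feature Extraction 10.10.1.1 produced, per the file headers. The log10 ratios deposited beside them are processed red over processed green, background-subtracted and dye-normalised (linear and lowess), and the series matrix holds the same log10 ratios.

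Mean intensities were corrected against background medians (normexp, offset 50), normalised by loess within arrays and averaged per probe, without controls and outlier spots. Probes were kept where all 4 arrays were well above background in red, or all 4 in green. Levels used Aquantile normalisation. Mean log2 ratios were tested against 0 with limma 3.58.1 (R 4.3.3), two-sided. The number of arrays limits the precision. Figures and sequences used Python with pandas and matplotlib.

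The genes and lists were chosen with earlier results of these data known. Named were all members, at most 3 genes per direction and list, the cell type markers and 5 nearest profiles each. Positions are EquCab1. Exons, promoters and proteins were not analysed here. A RefSeq gene table held all 10 symbols. Alternatives covered background, normalisation, filter, test, pairing and replicates. The scripts were tested on simulated data.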

Additional observations from a re-analysis of the deposited data

Results flagged for a closer look

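On replicate 4 the second of the 5 CSRP3 probes had a log2 ratio of 0.47, while the other 3 arrays gave 0.18 to 0.23 at that probe. The gap to the nearest array was 0.85 of the whole range, above Dixon's 95% limit for 4 values. The 4 overlapping CSRP3 probes had 0.19 to 0.36 on that array. This was 1 of 17 sets of 4 arrays examined, and chance passes the limit in about 1 of 20. The cause was not tested.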

How the results depend on the processing

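Most probe counts depended on the arrays and the test. In place of 4137 probes past the threshold there were 12 with median centring (all higher), 5 with the methods' t-test, 600 with no replicate block and 0 to 3899 when each array was left out in turn (2 without replicate 1, 38 without replicate 3). With a fold change of 1.3 the count of 345 became 1102 with processed signals, and equally with series matrix values (67.5% higher, against 79.7%), 660 with offset 0, 12 with median centring, 1 with the t-test, 210 with no replicate block and 0 to 694 without an array. Where 0 passed without replicate 4, limma gave 6694 probes at an unadjusted p under 0.05.

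The 9 Z-disc probes became 1 with median centring, 0 with the t-test (8 unadjusted), 5 with no replicate block and 0 to 10 without an array. The 12 partner genes became 0 with median centring, 0 with the t-test, 3 with no replicate block and 0 to 12 without an array. The 4 genes of the non-muscle list became 0, 0, 0 and 0 to 2 in these settings. The 2 calcineurin, NFAT and MEF2 genes became 1 with processed signals and with series matrix values, and 0, 0, 0 and 0 to 3 in these settings. The 3 M-band and assembly genes became 0 with median centring, 0 with the t-test and 0 to 3 without an array. The block here is the array that each treated and control sample share, and the mean ratios are the same with and without it.

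Ratios that changed sign were near 0. The first MYOT probe gave −0.0054 with offset 0, −0.0051 with median centring, −0.018 with the row and column correction, −0.00055 as a mean of its probes and −0.072 to 0.087 without an array (−0.035 without replicate 3). The second gave 0.047 with no background correction, 0.0010 with the GC correction, 0.017 with the row and column correction, 0.0056 with array weights and −0.067 to 0.079 without an array (0.029 without replicate 2). DES gave −0.022 with the GC correction and −0.029 to 0.061 without an array (−0.0031 without replicate 2). The cause was not tested. Signal over background limits the dim probes: LDB3 was too dim to test, and MYOT, CSRP3, TCAP and MYOZ3 had mean log2 signals of 7.497 to 8.23.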
